A study of Homo sapiens with 12 samples.

Results

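Solute carriers are the largest family of membrane transport proteins, and each human gene of the family is named by its subfamily number and its place in it. The mRNAs described here were chosen by their symbol (SLC, a number, A, a number) and by their measured abundance, an RSEM expected count of at least 500 on average over all 12 libraries. RSEM's expected count is its estimate of how many reads or fragments came from a gene. Of 335 solute carrier genes among 56632 genes in the tables, 90 met this rule and 67 were at 0 in every library. The 90 comprised 25 members of the mitochondrial carrier family (SLC25) and 65 members of all other families, and all 90 passed the filter on low counts. Just inside the minimum were SLC7A8, SLC2A11 and SLC25A14 with mean counts of 531.5, 537.9 and 543.0, and just outside were SLC22A18, SLC38A1 and SLC9A8 with 495.1, 492.7 and 479.3. Because abundance chose the mRNAs, their counts are given only as a description. In 32 of the 90 the mean count was at least 500 in each of the 6 conditions separately.

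The samples were cells of MCF10A, an immortalized line derived from human breast epithelium, either wild type (WT) or knocked out by CRISPR-Cas9 for CBFB (CBFB_KO), the non-DNA-binding partner of the RUNX transcription factors. Cells of both genotypes were treated with cycloheximide at 100 µg/ml for 30 min, which holds ribosomes on mRNA, and lysates were spun through 10 to 50% sucrose gradients. RNA was taken from the ribosome-free fraction (free), the monoribosomal fraction (mono) and the pooled polyribosomal fractions (poly), with 2 replicates in each of the 6 conditions. Replicates are called gradient 1 and gradient 2 by their number in the labels, which do not say that fractions with the same number came from the same gradient. The study's methods describe knockout lines grown from single cells, and the labels do not say which clone was sequenced or whether the 2 replicates came from separate cultures, so p-values measure only the spread between these libraries.

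Most SLC25 carriers, though not every member, move metabolites, nucleotides and ions across the inner mitochondrial membrane. Their mRNAs are translated largely on cytosolic ribosomes, and the finished proteins are imported through the TOM complex, the small TIM chaperones and TIM22. Nearly all other families act at the plasma membrane or on organelles of the secretory pathway, and their proteins are inserted into the endoplasmic reticulum (ER) during translation, through SRP and the Sec61 channel. An mRNA carrying many ribosomes sediments in the polysomes, so the amount in polysomes relative to the mono or free fraction is a common index of translation. Coding length also bears on the index, since a longer coding region has room for more ribosomes.

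Library totals ranged from 41050325 to 63886726 expected counts. Mitochondrially encoded genes took 71.56% and 87.22% of the CBFB_KO free libraries, 11.1% and 20.81% of the WT free libraries and 1.26% to 8.08% of the other 8, so that nuclear genes had 13568143 and 5247878 counts in CBFB_KO free against at least 43279862 in each remaining library. The CBFB_KO poly libraries were nearly identical, with a mean chi-square per gene of 2.257 between replicates against 128.4 to 957.5 in the other conditions. CBFB mRNA was still present in the knockout, at 3.59 to 14.1 CPM (counts scaled to a common library total) against 5.37 to 12.6 in WT. Both CBFB_KO libraries lay below both WT libraries in mono (log2 difference -0.71) and in poly (-0.72), the free libraries overlapped (0.49), and none of the 3 differences passed (adjusted p = 1.0, 1.0 and 0.37). Of 8 markers of basal mammary epithelium, KRT5, KRT6A, KRT17 and ITGB4 were at 41 TPM (a level per transcript length, here without mitochondrially encoded genes) or more in every library, and KRT14, TP63, EGFR and LAMB3 had their lowest values at 0.98, 0.15, 0.23 and 2.46. TP63 and EGFR were highest in the CBFB_KO free libraries, at 51.3 and 86.1 TPM and at 59.3 and 60.5. Of 5 markers of other cells PGR, PTPRC and COL1A2 were at 0 in all 12, ESR1 was at 0.02 to 0.79 TPM and COL1A1 at 0.04 to 3.14. All CPM below were scaled by TMM, which sets libraries on a common scale by their middle genes. Since each library was made from RNA of 1 fraction, these values are shares within a fraction and give no absolute amount.

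Together the 90 mRNAs took 1.55% and 1.48% of the counts outside mitochondrially encoded genes in WT poly, 0.955% and 0.627% in WT mono and 1.27% and 1.25% in WT free. In WT poly, 0.539% and 0.492% fell on SLC25 mRNAs and 1.01% and 0.993% on the others. In WT free the order was not the same in both gradients, with 0.913% and 0.574% on SLC25 mRNAs against 0.356% and 0.68% on the others.

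Compared per length, as RSEM's TPM recomputed without mitochondrially encoded genes, 5 carriers stood above the rest in WT polysomes. SLC25A3, the phosphate carrier, had 840.3 ± 44.1 TPM (SD, n = 2). SLC25A6 and SLC25A5, which exchange ADP for ATP, had 815.5 ± 21.7 and 705.8 ± 16.7. SLC7A5 (LAT1), which imports large neutral amino acids, had 688.6 ± 108.7, and its heavy chain SLC3A2 (CD98) had 562.8 ± 175.7. In this order SLC25A6 and SLC25A5 differed by more than their spread, and no other pair of neighbours did. In WT free the highest were SLC25A6 at 1709 ± 761 TPM and SLC25A39, which carries glutathione into mitochondria, at 1225 ± 505, which differed by less than their spread. SLC25A3 came next at 339.7 ± 73.7. The median of the 90 was 22.05 TPM in WT free, 9.04 in WT mono and 23.6 in WT poly. SLC25A4, SLC25A5 and SLC25A6 are close paralogs and SLC25A5 has processed pseudogenes, so reads that RSEM had to divide between copies make their levels less certain.

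**Figure D1:**
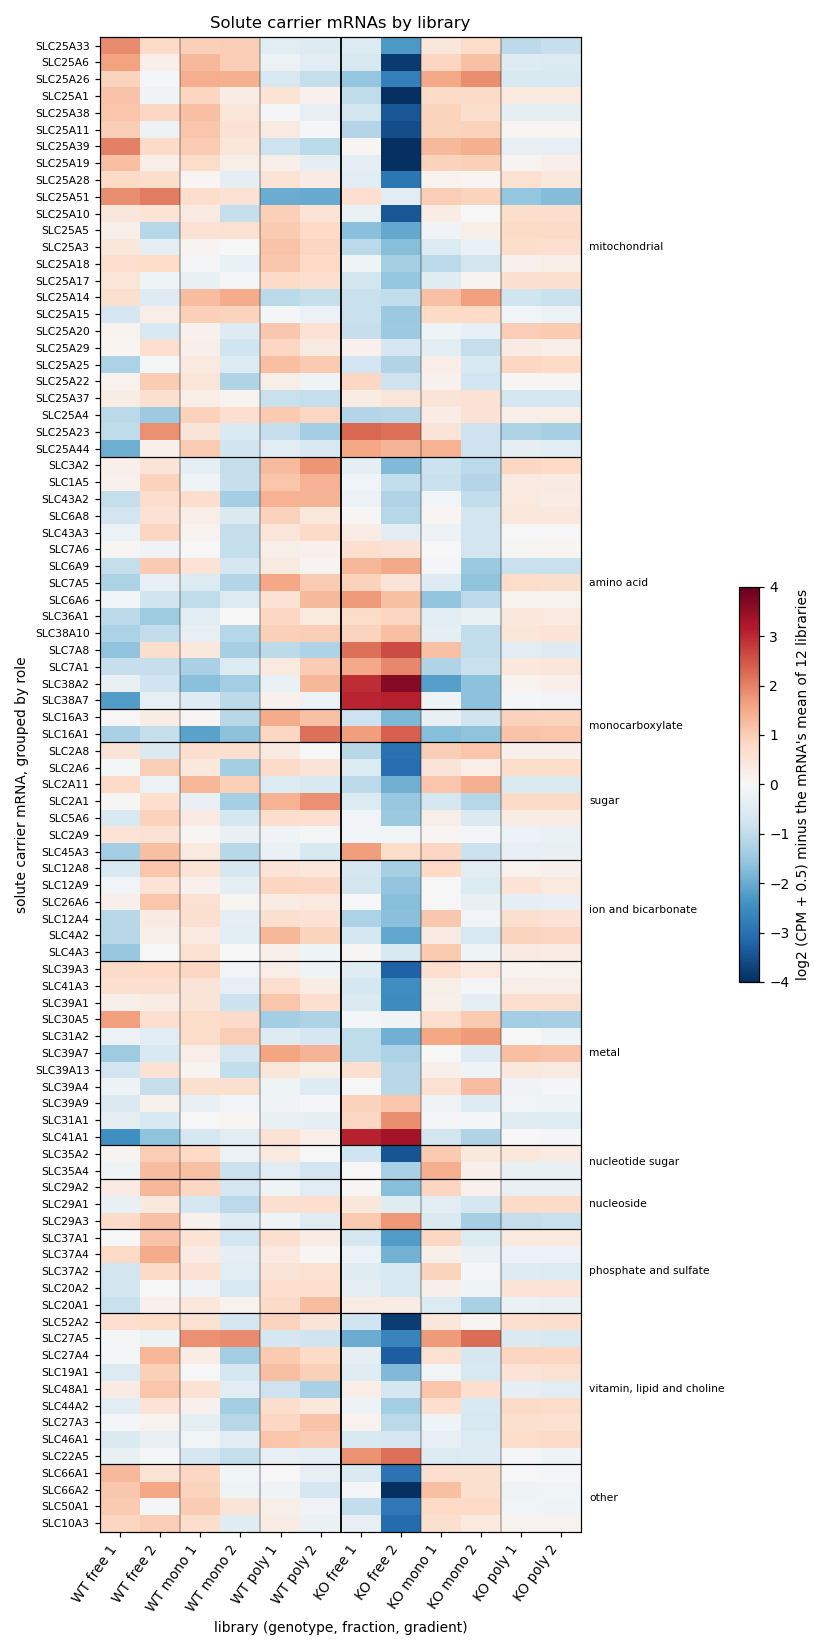
Each row is 1 of 89 of the 90 solute carrier mRNAs, grouped by role and sorted within a role by the free-fraction difference between genotypes. Each column is 1 library. The colour gives log2 (CPM + 0.5) minus the mRNA's own mean over 12 libraries, with the scale ending at 4 in either direction. The second CBFB_KO free library is the lowest for many rows, whereas SLC41A1, SLC38A2 and SLC38A7 are highest in both CBFB_KO free libraries.

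The first question was where each carrier mRNA sat in unperturbed cells. In WT polysomes compared with monosomes, 15 of the 90 were higher and 8 were lower by edgeR's quasi-likelihood test at an adjusted p under 0.05, where 11.0% and 9.68% of all 16275 genes tested were higher and lower. A monocarboxylate carrier led the first group. SLC16A1 (MCT1), which moves lactate and pyruvate, had 1.7 and 2.61 CPM in mono and 16.9 and 44.9 in poly. This was a log2 difference of 3.84 ± 0.53 (SE, adjusted p = 0.0032), with no overlap between the fractions although the poly libraries lay well apart. The other monocarboxylate carrier of the list, SLC16A3 (MCT4), rose less and did not lead. It was at 177 and 80.5 CPM in mono and 484 and 392 in poly (1.77 ± 0.48, adjusted p = 0.025).

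Amino acid carriers made up 7 of the 15, out of 15 such mRNAs in the list, and none was lower. Roles went by subfamily number, so the amino acid group can hold members with another substrate. The 46.7% higher compares with 11.0% of all genes. It was 18.3% among genes whose effective length, explained below, was 2000 bases or more. SLC7A5 had 488 and 322 CPM in WT mono and 2094 and 1473 in WT poly, a log2 difference of 2.14 ± 0.49 (adjusted p = 0.012). SLC3A2 rose by 2.20 ± 0.49 (adjusted p = 0.01), from 159 and 109 CPM to 506 and 721. The glutamine carriers SLC38A2 (SNAT2) and SLC1A5 (ASCT2) rose by 2.39 ± 0.55 and 1.77 ± 0.46 (adjusted p = 0.012 and 0.02). The cationic amino acid carrier SLC7A1 rose by 1.61 ± 0.41 (adjusted p = 0.018). Of the sugar carriers, SLC2A1 (GLUT1), the main glucose carrier of proliferating cells, was at 23.1 and 11.1 CPM in mono and 76.2 and 104 in poly (2.40 ± 0.51, adjusted p = 0.0085).

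No SLC25 mRNA was among the 15, and 4 of the 25 were among the 8 that were lower in polysomes. SLC25A51, which carries NAD+ into mitochondria, had 29.4 and 26.7 CPM in WT mono and 4.11 and 4.03 in WT poly (log2 difference -2.79 ± 0.43, adjusted p = 0.0036). SLC25A14, an uncoupling protein of the family, and SLC25A26, which carries S-adenosylmethionine, fell by 2.56 and 2.27 (SE 0.44 and 0.49, adjusted p = 0.0045 and 0.0096). SLC25A37 (mitoferrin-1), an iron carrier, fell by 1.16 ± 0.33 (adjusted p = 0.03). The other 4 were SLC27A5, a fatty acid activating and transport protein (-2.65 ± 0.40, adjusted p = 0.0035), the zinc carrier SLC30A5 (-2.14 ± 0.40, adjusted p = 0.0057), and, outside the rule for naming, SLC2A11 and SLC31A2. The SLC25 mRNAs did not move as a block: SLC25A3 stood at 0.95 ± 0.40 and SLC25A5 at 0.34 ± 0.45, and neither passed. SLC25A6 stood at -1.49 ± 0.77 and SLC25A39 at -1.73 ± 0.96, and neither passed. Medians were -0.55 for SLC25, 0.65 for the other 65 and -0.04 for all genes tested. Unscaled by TMM, the SLC25 median was 0.30, with that of all genes at 0.81, so its sign depends on the scaling. Its place below the median of all genes could hardly change, since scaling moves every gene by nearly the same amount. Effective length, the number of start positions RSEM allows a fragment, had a median of 1553 bases in SLC25 and 2120 in the others, and coding length 942 and 1521 bases. Its part in this difference was not tested. Without WT gradient 2, 0 of the 90 passed in either direction by edgeR (16 higher and 6 lower at an unadjusted p under 0.05), and without WT gradient 1, 4 were higher and 2 lower.

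**Figure D2:**
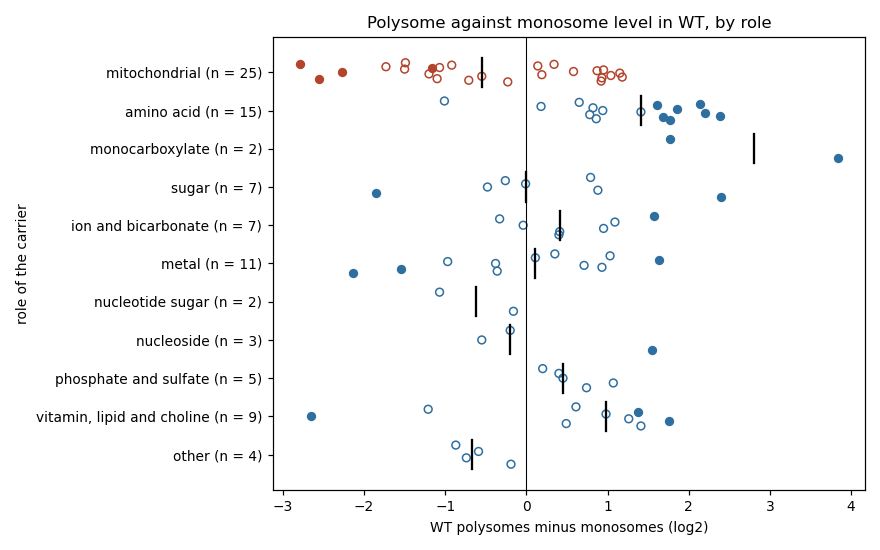
Each point is 1 solute carrier mRNA, placed by its log2 difference between WT polysomes and monosomes (horizontal axis) and its role (vertical axis, with the number of mRNAs). Filled points passed an adjusted p under 0.05, and the black bar is the median. Amino acid and monocarboxylate carriers lie mostly to the right, with medians of 1.41 and 2.80, and mitochondrial carriers (red) spread across both sides with a median of -0.55 (0.30 without TMM).

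The same comparison was made in CBFB_KO cells, within the fit of all 12 libraries, so scaling and spread were shared with the WT comparison. Of the 90, 9 were higher and 8 lower in polysomes than in monosomes, against 8.2% and 8.66% of all genes. All 9 were among the 15 of WT and all 8 were the 8 of WT. That is 60.0% of the WT higher list and 100.0% of the WT lower list, where over all genes tested 64.7% and 79.3% of the WT calls recurred. Fitted on the libraries compared alone, 27 were higher and 19 lower. SLC16A1 differed by 2.98 ± 0.51 (adjusted p = 0.0067), from 2.53 and 2.73 CPM in mono to 20.9 and 20.7 in poly, and SLC25A51 by -2.68 ± 0.43 (adjusted p = 0.0061). SLC38A2, SLC3A2, SLC2A1 and SLC7A5 again followed SLC16A1, at 2.25, 1.78, 1.74 and 1.68. SLC27A5, SLC25A14, SLC30A5 and SLC25A26 were lower by 2.63, 2.43, 2.34 and 2.32. With the near-identical CBFB_KO poly pair counted as 1 sample, 0 passed in either direction by edgeR (13 higher and 8 lower at an unadjusted p under 0.05). Leaving out either CBFB_KO gradient also gave 0 in both directions, with 12 higher and 12 lower unadjusted without gradient 1 and 6 and 10 without gradient 2. The difference of the poly to mono contrast between genotypes passed in 0 of the 90 and in 0.0% of all genes in either direction (0 of the 90 at an unadjusted p under 0.05, and 0 by DESeq2).

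Against the free fraction, WT polysomes held more of 12 carrier mRNAs and less of 7, where 14.0% and 7.99% of all genes were higher and lower. SLC16A1 again led (2.94 ± 0.51, adjusted p = 0.0035), followed by the magnesium carrier SLC41A1 (2.51 ± 0.43, adjusted p = 0.0032) and SLC39A7 (ZIP7), which releases zinc from the ER (2.47 ± 0.46, adjusted p = 0.0048). SLC25A4, an ADP/ATP carrier, had 8.19 and 6.2 CPM in WT free and 37.5 and 32 in WT poly (2.27 ± 0.35, adjusted p = 0.0024), and the amino acid carrier SLC38A10 rose by 2.13 ± 0.42 (adjusted p = 0.0057). In the other direction SLC25A51 had 65.6 and 74.2 CPM in free against 4.11 and 4.03 in poly (-4.10 ± 0.46, adjusted p = 0.0011). SLC30A5, the pyrimidine nucleotide carrier SLC25A33, the heme carrier SLC48A1 and SLC25A37 followed at -2.61, -1.98, -1.83 and -1.44 (adjusted p = 0.0025, 0.027, 0.025 and 0.013). Without WT gradient 1, 3 were higher and 2 lower, of which 3 and 1 were among these 12 and 7. Without WT gradient 2, 10 were higher and 3 lower, of which 9 and 3 were among them. SLC16A1 and SLC25A4 were higher and SLC25A51 lower under all alternatives tried.

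In CBFB_KO cells 23 of the 90 were higher and 16 lower in poly than in free, against 14.6% and 16.7% of all genes. The 5 largest rises were SLC25A5 (2.63 ± 0.48), SLC25A20, the carnitine and acylcarnitine carrier (2.34 ± 0.46), SLC39A7 (2.33 ± 0.46), the riboflavin carrier SLC52A2 (2.31 ± 0.78) and the citrate carrier SLC25A1 (2.28 ± 0.79). Among the 5 largest falls were SLC25A23, an ATP-Mg/phosphate carrier (-3.55 ± 0.82), SLC41A1 (-3.28 ± 0.44), SLC38A2 (-3.21 ± 0.57) and the lysosomal amino acid carrier SLC38A7 (-3.19 ± 0.69). Adjusted p-values of these 9 ranged from 0.00045 to 0.047. SLC41A1 therefore lay in opposite directions in the genotypes. Without SLC7A8, which was high in CBFB_KO free and reached the count minimum only through it, 15 of 89 were lower. The number higher fell from 23 to 0 by edgeR without CBFB_KO gradient 2 (10 at an unadjusted p under 0.05), and to 5 with the poly pair as 1 sample. The number lower fell from 16 to 1 without CBFB_KO gradient 2, to 7 without gradient 1 and to 5 with the poly pair as 1 sample.

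The study asked whether loss of CBFB changes which mRNAs are translated. In the mono and poly fractions themselves no carrier mRNA passed the test between genotypes. In mono, 0 of the 90 passed in either direction by edgeR, against 0.0307% higher and 0.117% lower among all genes (1 of the 90 at an unadjusted p under 0.05, and 0 by DESeq2). In poly, 0 of the 90 passed, against 0.0246% higher and 0.166% lower among all genes (1 at an unadjusted p under 0.05, and 0 by DESeq2). The largest poly difference was that of SLC20A1, a sodium-phosphate carrier, with 113 and 154 CPM in WT and 54.5 and 53.1 in CBFB_KO (log2 difference -1.31 ± 0.45). SLC20A1 was also the lowest in mono (-1.15 ± 0.45). In poly 86 of the 90 log2 differences lay within 1, and in mono 89, with median SE of 0.51 and 0.52. Differences beyond 1 log2 unit, those of SLC20A1 among them, did not pass at this spread. The absence of calls therefore does not show that levels were equal. When the test was fitted on the 4 poly libraries alone, 3 carrier mRNAs were lower in CBFB_KO. That fit takes its spread in part from the near-identical CBFB_KO poly pair, whose part in these calls was not tested.

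**Figure D3:**
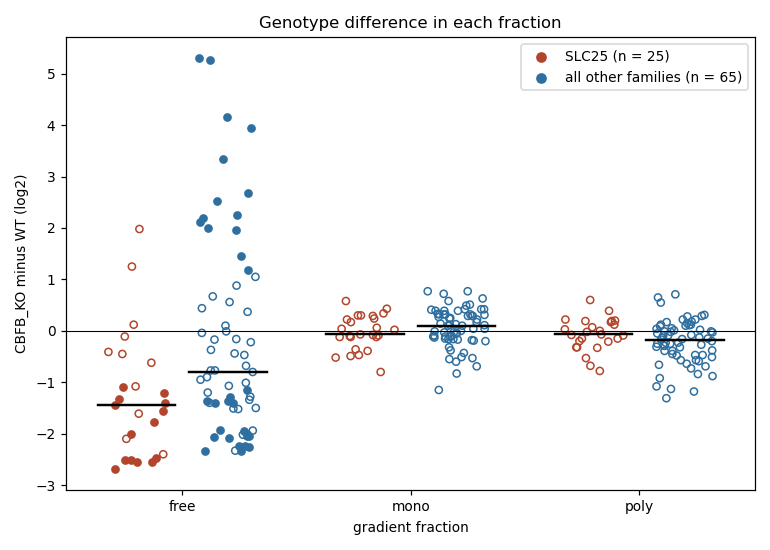
Log2 difference of CBFB_KO minus WT (vertical axis) for the 90 solute carrier mRNAs in each gradient fraction (horizontal axis), with the 25 SLC25 mRNAs in red and the other 65 in blue. Filled points passed an adjusted p under 0.05 and bars are medians. All filled points lie in the free fraction, where values run from -2.69 to 5.31.

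In the free fraction 46 of the 90 differed, 14 higher and 32 lower in CBFB_KO, where 24.2% of all genes were higher and 18.1% lower. The share lower, 35.6%, was above that of all genes, and the share higher, 15.6%, below it. Carriers under the count minimum that could be tested went the other way, with 30.7% higher and 5.26% lower. The count rule draws on these same libraries, of which CBFB_KO free had the fewest nuclear counts, so these shares are a description only. In all 46 the WT and CBFB_KO libraries did not overlap in CPM. The same held for the called carriers of every contrast, so it adds no evidence to the calls. The median was -1.08 for the 90, -1.45 for SLC25, -0.80 for the others and 0.04 for all genes tested. Without TMM, and so relative to all counts including mitochondrially encoded ones, the median of all genes moved to -1.57 and that of the 90 to -2.68. With totals that leave those genes out the medians were 0.37 and -0.78. A change of scale moves every gene by nearly the same amount, so the distance between the 90 and all genes could hardly change with it. Being shares within a fraction, these values give neither the number of cells nor the RNA per cell.

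The 14 that rose came from families outside SLC25. SLC41A1 had 3.4 and 6.47 CPM in WT free and 179.8 and 211.9 in CBFB_KO free. The log2 difference was 5.31 ± 0.48 (adjusted p = 7.3e-05). Both CBFB_KO free libraries lay above all 10 other libraries. In the mono fraction SLC41A1 was at 12.5 and 15.0 CPM in WT and 12.4 and 8.79 in CBFB_KO, and in poly at 31.3 and 25 against 20.6 and 19.7, so the genotypes differed by 5.31 log2 units in free and by -0.48 in poly.

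Amino acid carriers made up 8 of the 14. One of the 8, SLC7A8, was at 2.41 and 14.0 CPM in WT free and 40.1 and 54.1 in CBFB_KO free (2.52 ± 0.89, adjusted p = 0.041) and reached the count minimum only through the CBFB_KO free libraries. Without SLC7A8, 13 of 89 were higher, 7 of them among 14 amino acid carriers. SLC38A7 was at 2.67 and 11.5 CPM in WT free and 124 and 128 in CBFB_KO free (4.15 ± 0.72, adjusted p = 0.0018). SLC38A2 was at 9.97 and 6.81 against 98.3 and 160.2 (3.94 ± 0.59, adjusted p = 0.00073). SLC7A1 was at 22.5 and 22.5 against 124 and 165 (2.68 ± 0.43, adjusted p = 0.001). SLC7A5, the most abundant carrier of the group, rose from 300.4 and 574 to 1374 and 1024 (1.46 ± 0.48, adjusted p = 0.033, but -0.18 without TMM), whereas its partner SLC3A2 went the other way, from 244 and 300.3 to 162 and 61.7 (-1.28 ± 0.47, adjusted p = 0.047). SLC1A5 stood at -1.07 ± 0.45 and did not pass (adjusted p = 0.074). The median of the 15 amino acid carriers was 1.46, with 8 higher and 1 lower, or 53.3% and 6.67%. Their median effective length was 2635 bases. Without SLC7A8 the median difference of the other 14 was 1.25, with 50.0% higher and 7.14% lower. All genes tested of 2000 bases or more had a median of 1.40, with 41.3% higher and 5.38% lower. On the scale without TMM the median of the 15 amino acid carriers was -0.18 where that of all genes was -1.57. Of the monocarboxylate carriers SLC16A1 rose, from 3.52 and 4.51 to 30.9 and 50.5 CPM (3.34 ± 0.52, adjusted p = 0.0009), and SLC16A3 fell, from 176 and 213 to 96.9 and 49.4 (-1.41 ± 0.48, adjusted p = 0.036). SLC41A1, SLC38A7, SLC38A2 and SLC16A1 passed under all alternatives tried.

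**Figure D4:**
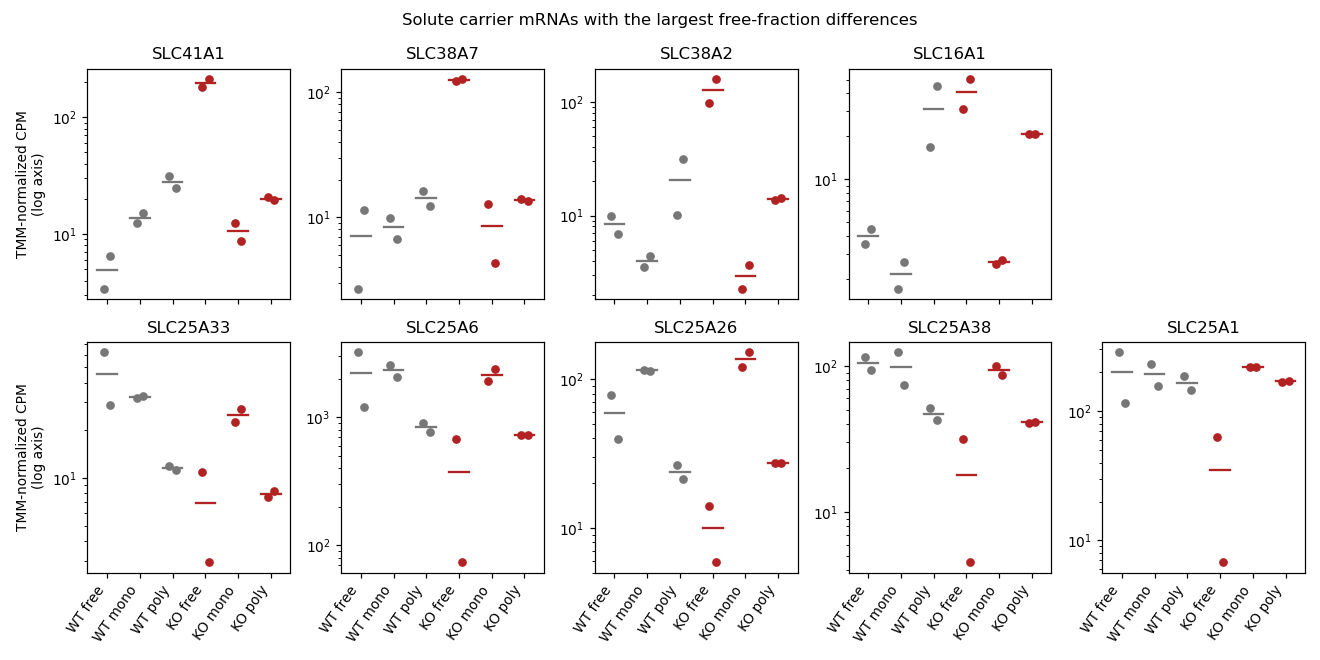
TMM-normalized CPM (log axis, a separate range for each panel) in every library for 4 of the 5 carrier mRNAs with the largest rise (upper row) and the 5 with the largest fall (lower row) in the CBFB_KO free fraction. Points are the 2 gradients and lines their mean, grey for WT and red for CBFB_KO. In the upper row the CBFB_KO free points lie above both WT free points, at 123.6 or more for SLC38A7 and SLC41A1. In the lower row the CBFB_KO free points lie below both WT free points and apart from each other.

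SLC25 mRNAs made up 14 of the 32 that fell, and none of the 25 rose. SLC25A33 had 62.2 and 28.9 CPM in WT free and 11 and 2.93 in CBFB_KO free (-2.69 ± 0.58, adjusted p = 0.0053). SLC25A6 had 3228 and 1205 against 675 and 73.6 (-2.56 ± 0.80, adjusted p = 0.026). SLC25A26, SLC25A38, which carries glycine for heme synthesis, and SLC25A1 fell by 2.55, 2.52 and 2.52 (adjusted p = 0.0035, 0.016 and 0.028). SLC25A5 and SLC25A3 fell by 1.55 and 1.45 (adjusted p = 0.021 and 0.017). SLC25A39 was at 2099 and 886 CPM in WT and 545 and 21.4 in CBFB_KO, and with that spread its difference of -2.40 ± 0.99 did not pass (adjusted p = 0.069). SLC25A37 stood at -0.11 ± 0.33 and SLC25A4 at 0.12 ± 0.34. The other carriers named by the rule that fell include SLC2A1 (-1.36 ± 0.49, adjusted p = 0.045), and SLC44A2, a choline carrier-like protein, stood at -0.80 ± 0.63 (adjusted p = 0.32).

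The falls were uneven between the 2 CBFB_KO free libraries. The second had less of 23 of the 25 SLC25 mRNAs than the first, with a median log2 ratio of -1.13, against -0.89 for the other 65, -0.10 for the amino acid carriers and -0.12 for all genes tested. It also had the fewest counts and the highest mitochondrially encoded share. Without CBFB_KO gradient 2 the number lower fell from 32 to 1, the fatty acid protein SLC27A5, and the number higher from 14 to 10. Without WT gradient 1 it fell to 10 and without WT gradient 2 to 21. Fitted by edgeR on the 4 free libraries alone, 0 were lower (19 at an unadjusted p under 0.05) and 6 higher, among them SLC41A1, SLC38A7, SLC38A2, SLC16A1 and SLC7A1. The part of the mitochondrially encoded share in these falls was not tested.

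Effective length moved with the free-fraction difference. It is RSEM's value averaged over the 12 libraries and can be shorter than the coding region. SLC27A5 had an effective length of 445 bases and a coding length of 2070, and SLC4A2 had 1604 and 3723. The length classes below are by effective length and not by full transcript length. Over the 90 mRNAs Spearman's rho between effective length and the log2 difference was 0.62, over the 16275 genes tested it was 0.44, and both describe genes of the same libraries, which are not independent replicates. All 14 mRNAs that rose had an effective length of 2000 bases or more. Below 2000 bases, 13 of 19 SLC25 mRNAs and 15 of 26 others fell, or 68.4% and 57.7%, with medians of -1.77 and -1.39. Of all 9710 genes tested of that length 26.6% fell, and their median was -0.77. At 2000 bases or more, 1 of 6 SLC25 mRNAs fell and 0 rose (median -0.43), and of 39 others 3 fell and 14 rose (median -0.17). The 35.9% that rose, or 13 of 38 (34.2%) without SLC7A8, were fewer than the 41.3% of all 6565 genes tested of that length. Of those genes 5.38% fell (median 1.40). With 3' UTR length rho was 0.49 and with coding length 0.35 over the 90. Within a length class the SLC25 medians thus lay below those of the other carriers by less than the classes differed. The part of length in the genotype difference was not tested.

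**Figure D5:**
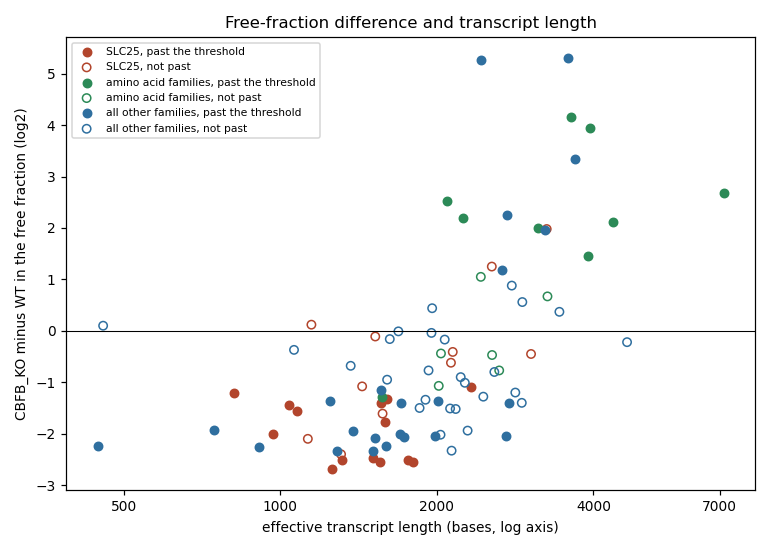
Effective transcript length in bases (horizontal log axis) against the log2 difference of CBFB_KO minus WT in the free fraction (vertical axis) for the 90 solute carrier mRNAs. SLC25 is in red, amino acid families in green and all others in blue, and filled points passed an adjusted p under 0.05. All filled points above 0 lie at 2000 bases or more.

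The transcription start of some of these mRNAs carries a pyrimidine run, the 5' terminal oligopyrimidine (TOP) feature known from ribosomal protein mRNAs, whose loading on ribosomes is regulated as a class. In RefSeq's promoter windows (GRCh38.p14), C followed by 4 bases that are each C or T began the transcript of 5 of 77 matched carrier mRNAs, or 6.49%, on the transcript's strand only. This was 5.19% over the genes tested that had a window and 4.04% over all 27305 windows, so the carriers were near the background, and 60.6% for 66 ribosomal protein genes. The windows of these 5 are shown, with that of SLC25A5 for comparison with its paralog SLC25A6, since per length SLC25A6 had the highest level of the 90 in WT free and WT mono. Each line gives 10 bases before and 20 from the annotated start, 5' to 3', with the pyrimidine run at the start in capitals.
SLC25A6 (chrX:1392094-1392123, minus strand): gctgctccgtCCTTTCggtccaggcggcgg
SLC25A5 (chrX:119468434-119468463, plus strand): cttcgctccgCCCCgcagcgccggagtcaa
SLC25A22 (chr11:798262-798291, minus strand): gcggacgcgcCTCCCCgcctaggtgctggc
SLC29A1 (chr6:44219605-44219634, plus strand): ctgttgcagcCTCTCTTCCgcccggcggcc
SLC41A3 (chr3:126084105-126084134, minus strand): ctccgcccgcCTCTTTCCCgccgccgcctg
SLC4A2 (chr7:151058190-151058219, plus strand): gttgttattcCTTTTatgtgctcccagccc

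SLC25A6 was at 2595 and 2082 CPM in WT mono and 898 and 773 in WT poly, and SLC25A5 at 385 and 392 in mono and 534 and 452 in poly. The other 4 with the start run had WT poly to mono differences of 1.55 for the nucleoside carrier SLC29A1, 1.09 for the anion exchanger SLC4A2, 0.35 for SLC41A3 and 0.19 for the glutamate carrier SLC25A22, of which SLC29A1 passed (adjusted p = 0.027). These 6 were named for their sequence after values were seen. A match is a description of letters and not a site, and the counts were made on another build (hg19), where the start used in MCF10A may differ.

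The difference between genotypes in the poly to free ratio was tested as an interaction. It was higher in CBFB_KO for 3 of the 90 and lower for 11, where 4.1% of all genes were higher and 14.3% lower, so the shares of 3.33% and 12.2% were near those of all genes. All 11 lower were outside SLC25, and 6 were amino acid carriers. Those 6 were 40.0% of the 15 amino acid carriers, whose median was -2.04. Of all genes tested of 2000 bases or more 26.3% were lower, with a median of -1.52. SLC41A1 led with -5.79 ± 0.61 (adjusted p = 0.00036), and among the others were SLC38A2 with -4.51 ± 0.77 (adjusted p = 0.0033), SLC38A7 with -4.20 ± 0.94 (adjusted p = 0.012) and SLC16A1 with -3.91 ± 0.69 (adjusted p = 0.0039). SLC7A1 stood at -2.97 ± 0.58 (adjusted p = 0.006) and SLC7A5 at -2.04 ± 0.68, which did not pass (adjusted p = 0.056). The 3 higher were SLC25A26 (2.74 ± 0.68, adjusted p = 0.02), SLC27A5 (2.38 ± 0.54, adjusted p = 0.013) and SLC25A51 (2.16 ± 0.58, adjusted p = 0.026). In poly the 14 differed between genotypes by less than 1 log2 unit each, so these contrasts repeat the free-fraction difference, with which they share the 4 free libraries. Medians were 1.40 for SLC25, 0.52 for the others and -0.10 for all genes. Without CBFB_KO gradient 2, 2 passed, SLC41A1 (-5.64) among them. With the CBFB_KO poly pair as 1 sample, 4 were lower and 0 higher by edgeR (8 higher unadjusted). Without WT gradient 1, 7 were lower and 0 higher (7 higher unadjusted), and without CBFB_KO gradient 1, 23 were higher.

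As the study's classes of mRNA rest on this ratio, it was also taken from the deposited FPKM, averaged per condition, for genes with a mean of at least 1 in each free and poly condition. The CBFB_KO ratio fell below 0.5 of the WT ratio in 6 of 78 carrier mRNAs, or 7.69%, against 8.1% of 7126 genes. Across 4 ways to pair gradients of the genotypes the carrier share ran from 7.69% to 16.7% (SD 4.24). Among the 6 were SLC41A1, SLC38A7, SLC38A2, SLC16A1 and SLC7A1, and 0 of 22 SLC25 mRNAs met the rule. On this scale the ratio rose above 2 times that of WT in 58 of the 78 carriers and in 4998 of the 7126 genes. FPKM divides by all counts, of which mitochondrially encoded genes took most in CBFB_KO free. From TMM-scaled CPM the share was 24.4%, against 27.4% of all genes, and from TPM without those genes 32.1%, against 37.1%.

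Genes of the insertion and import machineries were read beside the carriers. Of 26 genes for ER insertion, 7 were higher and 4 lower in CBFB_KO free, with a median of -0.06. These shares, 26.9% and 15.4%, were near the 24.2% and 18.1% of all genes. The SRP receptor subunit SRPRA rose by 4.09 (adjusted p = 0.0001), SSR1 by 3.67 (adjusted p = 0.00056) and SRP54 by 3.44 (adjusted p = 0.0023), while the Sec61 subunit SEC61B fell by 1.80 (adjusted p = 0.0051). In mono and poly EMC10, a subunit of the ER membrane complex, was the 1 gene of these machineries that passed between genotypes. It was at 55.2 and 25.5 CPM in WT mono and 1.34 and 0.77 in CBFB_KO mono (log2 difference -5.25, adjusted p = 0.0048), and at 85.0 and 68.4 against 1.66 and 1.61 in poly (-5.55, adjusted p = 0.0026). In free it stood at -0.71 and did not pass (adjusted p = 0.27). The median effective length of the 26 was 1418 bases. Of 15 genes for import of mitochondrial carriers, 10 were lower and 1 higher in CBFB_KO free (median -1.67). The 66.7% lower compares with 18.1% of all genes and 26.6% of those under 2000 bases. Among the carriers under 2000 bases the shares were alike, at 68.4% for SLC25 and 57.7% for the others. In WT 9 were lower and 1 higher in poly than in mono (median -1.96), or 60.0% lower against 9.68% of all genes and 14.9% of those under 2000 bases. TOMM22, a receptor of the outer membrane, fell by 3.05 in CBFB_KO free (adjusted p = 0.0031) and the chaperone TIMM10 by 2.28 (adjusted p = 0.0017), while TOMM70, which receives carrier precursors, rose by 2.11 (adjusted p = 0.0081). The median effective length of these 15 was 1108 bases. BSG and EMB, partner proteins of the monocarboxylate carriers at the cell surface, were higher in CBFB_KO free by 1.38 (adjusted p = 0.028) and 5.28 (adjusted p = 0.00045).

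Of the 245 solute carrier genes under the count minimum, 114 could be tested, with a median effective length of 2339 bases. In CBFB_KO free 35 of these were higher and 6 lower (median 1.04). These shares were 30.7% and 5.26%, against 24.2% and 18.1% of all genes and 41.3% and 5.38% of those of 2000 bases or more. In WT 11 were higher and 2 lower in poly than in mono (median 0.71), or 9.65% and 1.75%, against 11.0% and 9.68% of all genes.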

How the data were processed

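The 12 libraries hold RNA of the free, mono and poly fractions of MCF10A cells, WT or CBFB_KO. The labels name an mRNA library kit, whereas the study's methods describe removal of rRNA for its RNA-seq, and which was used here is not settled. The submitters' processing notes name Trimmomatic, STAR, RSEM and the hg19 build, without versions. The deposited expected counts are RSEM's estimates per gene, not normalized by the authors. For the deposited TPM the authors used RSEM's scaling to a fixed sum, and for the deposited FPKM that by effective length and library total.

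Symbols were matched by gene ID for 49995 of 56632 genes. After rounding, expected counts entered edgeR's quasi-likelihood test (edgeR 4.0.16 in R 4.3.3), with TMM scaling, 1 mean for each condition in a model of all 12 libraries, and filterByExpr by condition, which kept 16275 genes. Calls are at a p under 0.05 after Benjamini-Hochberg adjustment across these genes. The SE is the log2 difference over the square root of F. The fits were tested on counts simulated with the same spread in every library. The real libraries differed in spread, so the simulation does not vouch for the shared estimate of it. Effective length is RSEM's own, and coding and UTR lengths came from GENCODE 29 (GRCh38), used without coordinates, for 90 of 90 carriers and 80.1% of genes tested. Roles were set by subfamily number and not by the substrate or the membrane of each carrier, so the SLC25 group can hold members outside mitochondria. The carriers, lists and tests were chosen with earlier results of these data known. Named were, per contrast, the 5 largest called changes in each direction whose libraries did not overlap, plus 16 carriers from a list of 20, the other 4 being under the count minimum. 1 carrier is counted but not reported here by name. Alternatives were another or no scaling, no filter, DESeq2 1.42.0, the libraries compared alone, a replicate block by number or by genotype and number, the CBFB_KO poly pair as 1 sample, and each gradient left out. The labels do not state a pairing by replicate number, and the data did not show one in every pair of conditions. Python 3.11.15, pandas 2.3.3, scipy 1.17.1 and matplotlib 3.10.9 were used. In a library of median depth, 3 counts are 5.86e-06 percent. Depth and intervals speak to counting error only.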

Additional observations from a re-analysis of the deposited data

Results flagged for a closer look

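In 14 carrier mRNAs the poly to free log2 ratio differed between CBFB_KO and WT by edgeR's test of the difference itself. Each of the 14 kept its sign whichever gradients of the genotypes were paired. That rests on the same libraries as the test and adds no evidence to it. The 3 higher and 11 lower were 3.33% and 12.2% of the 90, near the 4.1% and 14.3% of all genes tested, and without CBFB_KO gradient 2 the 11 lower fell to 2 and the 3 higher to 0 by edgeR (4 higher at an unadjusted p under 0.05). Among those lower in CBFB_KO were SLC41A1 (-5.79), SLC38A2 (-4.51), SLC38A7 (-4.20), SLC16A1 (-3.91), SLC7A1 (-2.97), SLC6A6, a taurine carrier (-2.88), SLC38A10 (-2.67), SLC36A1, a proton-coupled amino acid carrier (-2.35), SLC31A1, a copper carrier (-2.14), and SLC22A5, the carnitine carrier (-2.02). It was higher for SLC25A26 (2.74), SLC27A5 (2.38) and SLC25A51 (2.16). SLC6A6, SLC36A1, SLC31A1 and SLC22A5 fall outside the rule for naming and were added after their values were seen. SLC41A1 passed under all alternatives tried.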

How the results depend on the processing

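Of 221 recomputed counts and shares, 159 stayed within 1.5 times their value (within 1 SD for the share), and of 986 recomputed differences of named carriers 793 kept their direction and side of the threshold, 164 lost it, 23 gained it and 6 changed sign. The sign changes were SLC1A5 in the poly to free difference (-0.14 with totals without mitochondrially encoded genes, with -0.21 to 0.65 over the gradients left out), and in the free fraction SLC20A1 (-1.15 without TMM), SLC7A5 (-0.18 without TMM) and SLC25A37 (0.23 with totals without mitochondrially encoded genes, with -0.28 to 0.00 over the gradients left out).

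In the poly to free difference, the 3 higher became 8 with the replicate block, 19 without TMM, 23 without the filter, 0 with the poly pair as 1 sample and 22 by DESeq2, and the 11 lower became 3 without TMM and 4 with the pair as 1 sample. In the free fraction, the 14 higher became 5 without TMM and 6 on the 4 libraries alone, and the 32 lower became 63 without TMM, 16 with totals without mitochondrially encoded genes and 0 on the 4 libraries alone. In poly, 0 lower became 3 on the 4 libraries alone. In WT poly against free, the 7 lower became 2 and 4 on the other scales, 3 with the pair as 1 sample and 13 by DESeq2. In WT poly against mono, the 15 higher became 31 with totals without mitochondrially encoded genes and 23 on the libraries compared alone, and the 8 lower became 1 and 5 on the other scales. In CBFB_KO poly against free, the 23 higher became 66 without TMM, 35 without the filter and 5 with the pair as 1 sample, and the 16 lower became 1 and 5. In CBFB_KO poly against mono, the 9 higher became 19 and 26 on the other scales, 27 on the libraries compared alone, 0 with the pair as 1 sample and 18 by DESeq2, and the 8 lower became 0, 5, 19 and 0 in the first 4 of these. The FPKM share of 7.69% became 24.4% from CPM, 32.1% from TPM and 2.56% with a minimum of 5.

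With each gradient left out, counts ranged from 0 to 23 and 2 to 10 (poly to free difference, higher and lower), 10 to 17 and 1 to 37 (free), 3 to 10 and 2 to 7 (WT poly against free), 0 to 13 and 0 to 8 (WT poly against mono), 0 to 30 and 1 to 16 (CBFB_KO poly against free), and 0 to 14 and 0 to 8 (CBFB_KO poly against mono). The share ranged from 6.82% to 14.1%. A lone sample was then assumed to vary like the other groups. The causes were not tested. Deviations of same-numbered libraries correlated at -0.16 to 0.279, over 0.1 in 5 of 15 pairs of conditions and in 2 of the 6 within a genotype, so a pairing by number was not shown. The replicate block moved no other count by over 1.5 times, and the block by genotype and number moved none.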

Other observations

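SLC7A5 and SLC3A2, whose proteins form 1 transporter, moved together between fractions in WT (poly minus mono 2.14 and 2.20) and apart between genotypes in the free fraction (1.46 and -1.28, the first -0.18 without TMM). Their effective lengths are 3903 and 1571 bases. SLC16A1 and SLC16A3, which carry the same substrates, showed the same split, with 3.34 and -1.41 in the free fraction and 3690 and 1702 bases. The difference within either pair was not tested.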
